A study of Mus musculus with 15 samples.

Results

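The regions described here are stretches of the mouse genome that carried an H3K4me3 peak inside a gene but away from any known transcript start. A peak was counted when it overlapped no window of 2000 bp either side of an annotated start of any gene type, and when its summit, the position of its strongest signal, lay inside an annotated gene. On chromosomes 1 to 19, the rule was met by 181 of 11988 WT peaks, by 425 of 13668 in WT + 2HG and by 500 of 14461 in CLPP-KO. Summits in an exon of the host gene numbered 71, 161 and 234, respectively, and summits in an intron 110, 264 and 266. Across lists, peaks that overlapped by 1 bp or more were merged, which gave 704 such regions in 628 host genes, of 15110 regions of any kind. By their strongest peak, 281 of the regions had an exon summit and 423 an intron summit, and 20 regions held both kinds.

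The peaks came from ChIP–seq of brown fat cells of the mouse (mBA cells) in 3 conditions with 4 ChIP samples each, together with 3 input samples. The mBA cells are brown preadipocytes immortalized with the SV40 large T antigen and differentiated in culture, although the sample labels call them primary, and each line was derived from pooled animals. WT cells are wild type and untreated. WT + 2HG cells are the same wild-type cells given 2-hydroxyglutarate in a cell-soluble form, octyl d-2HG in DMSO. CLPP-KO cells lack CLPP, a protease of the mitochondrial matrix, and grew with added uridine, so that the effects of genotype and uridine cannot be told apart. The authors called 1 peak list from the 4 replicates of a condition together, so no spread between replicates exists for any value below. All intervals given are 95% intervals that treat peaks as units and cover counting error only, and they describe the lists rather than the conditions. Depth in reads is not recorded in the lists. Where 3 values are given in a row below, they follow the order WT, WT + 2HG and CLPP-KO, and the last 2 are together called the non-WT lists. Among 6 adipocyte markers, none of which is particular to brown fat, Pparg and Cebpa had a promoter peak in all 3 lists, Lpl and Plin1 had one in WT + 2HG and CLPP-KO, and Adipoq and Fabp4 had none in any list. Of the markers of other cell types, 0 of 4 macrophage, 1 of 4 endothelial and 2 of 4 fibroblast genes had a promoter peak in each list, muscle 0, 1 and 2 of 5 (Des in WT + 2HG, Des and Myod1 in CLPP-KO) and neurons 1, 1 and 2 of 3 (Rbfox3 added in CLPP-KO); their part in the results was not tested.

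Trimethylation of lysine 4 of histone H3 is deposited by complexes of the SET1 and MLL family and sits around the starts of active and poised genes. Several of these complexes are brought to DNA by proteins that bind unmethylated CpG, and so the mark tends to follow CpG islands, whether or not a start is known there. Within gene bodies, islands can hold starts that are not annotated, and CpG-rich coding exons of developmental genes are often kept free of DNA methylation. In fat cells the mark is best known at the promoters of genes for adipocyte factors and lipid handling.

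The sequence at the summits differed between kinds of region, and 8 summits are shown for this reason, each as 200 bases of GRCm39 on the plus strand with every CpG in capitals. The first 6 are the summits of largest area whose 200 bases touch no untranslated exon, 1 exon and 1 intron each from regions in all 3 lists (Zfp36l1, chr12:80156988-80157187, and Ebf3, chr7:136911190-136911389), in WT + 2HG and CLPP-KO (Vgll2, chr10:51903757-51903956, and Kcnh2, chr5:24553514-24553713) and in CLPP-KO alone (Cyp26c1, chr19:37681424-37681623, and Pax3, chr1:78166300-78166499). The summit in 4930517M08Rik (chr17:4676519-4676718) lies in a tandem repeat, and that in Pdilt (chr7:119104120-119104319) belongs to the largest family of repeated windows; these 2 were chosen after their values were seen. These 6 stretches hold between 15 and 26 CpGs, that of Pdilt 10 and that of 4930517M08Rik 0.
Zfp36l1: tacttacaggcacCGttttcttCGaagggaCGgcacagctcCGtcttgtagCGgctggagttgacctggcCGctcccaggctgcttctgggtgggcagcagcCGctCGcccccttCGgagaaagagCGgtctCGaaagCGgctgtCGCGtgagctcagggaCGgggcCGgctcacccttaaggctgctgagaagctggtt
Ebf3: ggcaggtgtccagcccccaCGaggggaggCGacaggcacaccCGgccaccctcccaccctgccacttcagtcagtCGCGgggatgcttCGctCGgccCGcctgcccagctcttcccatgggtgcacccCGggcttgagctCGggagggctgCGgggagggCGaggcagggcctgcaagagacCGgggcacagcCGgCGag
Vgll2: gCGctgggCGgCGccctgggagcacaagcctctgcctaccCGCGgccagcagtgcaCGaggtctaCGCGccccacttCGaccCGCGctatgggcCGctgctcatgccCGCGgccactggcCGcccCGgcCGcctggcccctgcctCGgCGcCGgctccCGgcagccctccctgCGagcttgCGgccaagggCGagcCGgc
Kcnh2: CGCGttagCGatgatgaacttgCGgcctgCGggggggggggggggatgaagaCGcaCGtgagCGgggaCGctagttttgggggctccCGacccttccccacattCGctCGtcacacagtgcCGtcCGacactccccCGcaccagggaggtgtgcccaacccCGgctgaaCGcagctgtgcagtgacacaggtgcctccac
Cyp26c1: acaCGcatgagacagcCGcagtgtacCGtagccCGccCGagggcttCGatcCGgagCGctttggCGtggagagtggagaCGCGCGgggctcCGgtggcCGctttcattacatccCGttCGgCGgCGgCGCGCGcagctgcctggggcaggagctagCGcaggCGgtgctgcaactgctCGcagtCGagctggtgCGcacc
Pax3: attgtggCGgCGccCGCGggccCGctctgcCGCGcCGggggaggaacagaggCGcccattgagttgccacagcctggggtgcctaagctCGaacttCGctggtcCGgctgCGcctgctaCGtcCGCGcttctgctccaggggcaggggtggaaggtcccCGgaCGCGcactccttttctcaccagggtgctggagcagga
4930517M08Rik: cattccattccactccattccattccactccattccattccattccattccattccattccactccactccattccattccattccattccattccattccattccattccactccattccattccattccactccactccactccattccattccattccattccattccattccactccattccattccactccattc
Pdilt: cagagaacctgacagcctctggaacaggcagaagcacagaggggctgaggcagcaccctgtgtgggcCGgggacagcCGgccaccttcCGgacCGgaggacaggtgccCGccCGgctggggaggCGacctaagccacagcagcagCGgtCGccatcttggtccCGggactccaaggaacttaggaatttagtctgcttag

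Regions inside genes were a small part of each list and a larger part of the non-WT lists than of the WT list. Their share was 1.51% in WT (Wilson interval 1.31 to 1.74%), 3.11% in WT + 2HG (2.83 to 3.41%) and 3.46% in CLPP-KO (3.17 to 3.77%). Promoter peaks, those that overlapped a start window, made up 97.8, 95.6 and 94.9%, and the remaining 78, 175 and 241 peaks lay between genes. The rise in number went with the length of the lists. When the WT + 2HG and CLPP-KO lists were limited to their 11988 peaks of largest area, the area being the authors' measure of peak strength, the counts were 197 and 196 against 181 in WT, or 1.64 and 1.63% against 1.51%, with overlapping intervals (1.43 to 1.89% and 1.42 to 1.88%). Within these equal-sized lists exon summits were more and intron summits fewer than in WT: 101 and 110 exon summits against 71, and 96 and 86 intron summits against 110. As shares of the list, exon summits were 0.592% (0.470 to 0.746%), 0.843% (0.694 to 1.02%) and 0.918% (0.762 to 1.10%), so that the intervals of WT and CLPP-KO did not overlap, whereas those of the intron shares did in every pair of lists. The cut left out the weakest peaks of the non-WT lists only, while WT kept its own. Intron summits of the non-WT lists were weaker than exon summits, as given below, so the cut removed more of them. These counts therefore show no shift from introns to exons between conditions.

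**Figure D1:**
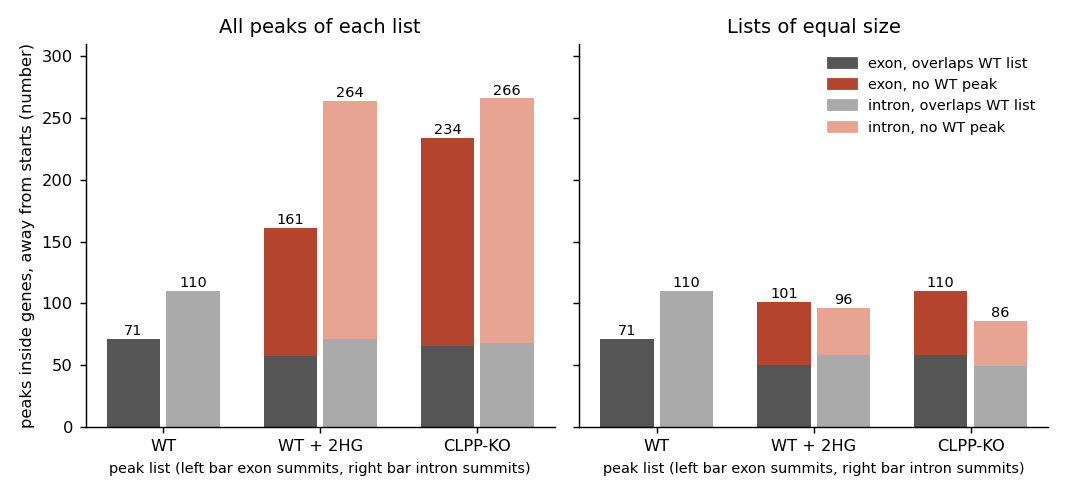
Number of peaks inside genes and away from starts in each list, with exon summits in the left and intron summits in the right bar of each pair; red parts overlap no WT peak. With all peaks (left panel) the bars rise from 71 and 110 in WT to 234 and 266 in CLPP-KO, and with lists of equal size (right panel) exon bars reach 101 and 110 while intron bars fall to 96 and 86. The equal lists leave out the weakest peaks of the non-WT lists only.

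Most of these peaks in the non-WT lists had no counterpart in WT. Of 425 WT + 2HG peaks inside genes, 297 overlapped no WT peak (69.9%), where the share over all WT + 2HG peaks was 18.3%. In CLPP-KO it was 367 of 500 (73.4%), where the share over all peaks was 22.6%. Exon and intron summits gave shares of 64.6 and 73.1% in WT + 2HG (exon minus intron −8.51 percentage points, Newcombe interval −17.6 to 0.462) and 72.2 and 74.4% in CLPP-KO. Promoter peaks were absent from WT in 15.9% (WT + 2HG) and 19.8% (CLPP-KO) of cases, so that the shares inside genes stood 54.0 points (49.4 to 58.2) and 53.6 points (49.5 to 57.4) higher. Peaks between genes gave 68.0 and 75.9%, and the difference from them included 0 in both lists (1.88 points, −6.00 to 10.2, and −2.53 points, −8.93 to 4.32). Both comparisons use the same WT list. In lists of equal size the shares absent from WT were 45.2 and 45.4% inside genes against 8.97 and 10.4% at promoters.

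In the full lists losses ran at a lower rate than the gains above and were also more frequent inside genes than at promoters. The WT list is the shortest (11988 peaks, against 13668 and 14461), and rates of loss were not computed in lists of equal size. In such lists regions of WT alone outnumbered those of either non-WT list alone, as given below. Only the non-WT lists were cut to make them equal, so this order is no measure of loss. Of the 181 WT peaks inside genes, 24.3% overlapped no WT + 2HG peak and 23.2% no CLPP-KO peak, where the shares over all WT peaks were 2.51 and 2.24% and those of promoter peaks 2.01 and 1.76%. WT peaks between genes were missing in 26.9 and 24.4% of cases, and the difference from them included 0 (inside minus between genes −2.61 points, −14.8 to 8.30, and −1.15 points, −13.1 to 9.39). Intron summits were missing from each non-WT list in 30.9% of cases and exon summits in 14.1 and 11.3%, which is 16.8 points lower than introns for WT + 2HG (interval of the difference, exon minus intron, −27.9 to −4.15) and 19.6 points lower for CLPP-KO (−30.3 to −7.37). Between the non-WT lists, 21.7% of WT + 2HG exon summits and 48.1% of its intron summits overlapped no CLPP-KO peak (exon minus intron −26.4 points, −34.6 to −17.2), where the share over all WT + 2HG peaks was 5.93%. In the other direction 42.7% of CLPP-KO exon summits and 50.8% of its intron summits overlapped no WT + 2HG peak, against 11.2% of all CLPP-KO peaks.

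Sorted by the lists that held them, the 704 regions fell into 7 combinations, and 523 (74.3%) were absent from WT, against 3869 of all 15110 regions (25.6%). CLPP-KO alone held 224, WT + 2HG alone 155, both of these without WT 144, and all 3 lists 130. WT alone held 33. WT shared a further 10 with CLPP-KO and 8 with WT + 2HG, in each case without the remaining list. The order turned in lists of equal size, where WT alone held 52 regions, CLPP-KO alone 38 and WT + 2HG alone 36 of 309, both of the latter without WT 53, and all 3 lists 104. That cut removed peaks from the non-WT lists only and kept all WT peaks. The number of regions in WT alone could thus rise but not fall, so the turn shows no difference between conditions. Regions in all 3 lists and those shared by the non-WT lists were split about evenly between exons and introns, at 66 to 64 and 74 to 70. Those of WT + 2HG alone were mostly in introns (121 of 155), as were those of WT alone (27 of 33), while CLPP-KO alone had 97 in exons and 127 in introns. The regions inside genes were 1.20% of all regions found in every list, 8.55% of those shared by the non-WT lists, 15.2% of those in CLPP-KO alone, 21.9% of those in WT + 2HG alone and 21.3% of those in WT alone. At 25 regions a list without a peak of this kind, or beside it, had a peak that reached into a start window.

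**Figure D2:**
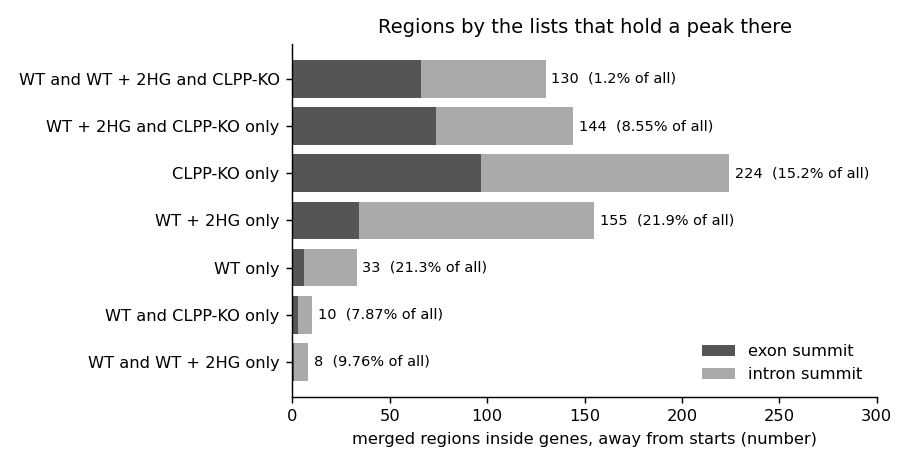
Merged regions inside genes by the lists that held a peak there, with exon summits in dark and intron summits in light grey; the number is the total and the percentage is its share of all regions with that combination. With all peaks CLPP-KO alone held most regions (224), and the share is lowest, 1.20%, for regions found in all 3 lists. In lists of equal size, for which only the non-WT lists were cut, CLPP-KO alone held 38 and WT alone 52.

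Peaks inside genes were narrow and weak beside promoter peaks of the same list, and so were peaks between genes. Strength is given here as a percentile, because areas are not scaled between lists. The percentile is the share of all deposited peaks of the same list with an area no larger, including peaks outside chromosomes 1 to 19. The lists differ in length, so a difference in percentile between them places a peak within each list and does not measure a change. The median percentile of exon summits was 15.4, 16.6 and 16.8, and that of intron summits 11.7, 7.95 and 11.1, whereas promoter peaks had medians from 51.9 to 53.7. Median widths were 515, 578 and 522 bp for exon summits and 456, 403 and 391 bp for intron summits, against 838, 912 and 897 bp at promoters. Peaks between genes had median percentiles of 13.1, 11.3 and 11.7 and median widths of 453, 442 and 405 bp. Peaks that overlapped a WT peak were the stronger ones. In CLPP-KO, exon summits with a WT peak had a median percentile of 35.8 and a median width of 870.0 bp, and those without had 11.5 and 441 bp. For intron summits the values were 27.4 and 545 bp with, and 7.98 and 353 bp without, a WT peak. WT + 2HG gave 33.3 against 12.5 for exons and 22 against 5.31 for introns.

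Because weak peaks of any kind were more often absent from WT, peaks were also compared within ranges of percentile, a comparison added after the data were seen. Among CLPP-KO peaks up to the 10th percentile, 94.1% of those inside genes (n = 203) and 79.9% of promoter peaks (n = 1057) were absent from WT, a difference of 14.1 points (9.41 to 17.7). From the 10th to the 25th percentile the shares were 78.9 and 63.2% (difference 15.7 points, 8.25 to 21.9), and from the 25th to the 50th they were 45.8 and 18.5% (27.2 points, 18.4 to 36.3). In WT + 2HG the differences over the same ranges were 16.3 points (11.4 to 20.0), 12.6 points (3.95 to 20.5) and 17.6 points (8.36 to 29.3). Above the 50th percentile 2 of 27 CLPP-KO peaks inside genes (7.41%) and 66 of 7396 promoter peaks (0.892%) were absent from WT. The difference was 6.52 points (1.16 to 22.5). In WT + 2HG it was 0 of 18 peaks inside genes and 6 of 6907 promoter peaks (0.0869%). The differences within a range were thus between 12.6 and 27.2 points below the list's median, against 53.6 and 54.0 points over all peaks.

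The strongest regions found in all 3 lists included single-exon genes and genes of developmental factors. Rap2b, which encodes a small GTPase of the Ras family, held an exon peak at chr3:61271439-61273417 with percentiles of 92.8, 92.6 and 95.3. No list had a peak in its annotated start windows, and the RefSeq start of Rap2b lay 361 bp from the summit. Sf3b5, a subunit of the splicing factor SF3b, had 69.3, 66.2 and 79.1 at chr10:12884124-12885024, again with no peak in its start windows. Sox11, a transcription factor of neural progenitors, had 38.3, 27.0 and 82.0 at chr12:27388664-27389827. It stood much higher in its list in CLPP-KO than in the other lists. Ebf3, a relative of the brown fat factor Ebf2, had 40.1, 72.3 and 95.6 in its intron 4 (chr7:136910689-136912850), and its peak was 1041, 1663 and 2131 bp wide. Foxc1, a forkhead factor of mesenchyme, stood lower in CLPP-KO than in the other lists, with 94.9, 95.9 and 45.3. Zfp36l1, an mRNA-decay protein, had 50.9, 55.4 and 73.2 in its last exon, and its WT + 2HG peak reached into a start window.

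Other strong regions of all lists lay in noncoding genes or were wide. The lncRNA Gm10644 had 80.9, 64.6 and 74.8. The lncRNA 4930517M08Rik, whose repeat sequence is printed above, had 88.2, 74.1 and 81.6 at chr17:4676440-4676876. Its summit window has 11 copies in the genome, so the position of its reads is uncertain. The 3 widest regions were Arhgef17 exon 1 (2549 bp), Ebf3 intron 4 (2162 bp) and Irs2 exon 1, an adaptor of the insulin receptor (2018 bp). At Arhgef17 the percentiles were 50.9, 99.4 and 29.1, and the WT + 2HG peak, 4422 bp wide, reached into a start window. At Irs2 they were 35.5, 39.9 and 37.3, close together in all lists.

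Of the 144 regions shared by WT + 2HG and CLPP-KO but absent from WT, 74 had an exon summit, and 105 had a CpG-rich summit as defined below. Among exon summits the largest areas were in Sobp exon 6, with percentiles of 32.6 (WT + 2HG) and 56.8 (CLPP-KO), in Lhx6 exon 7, a LIM homeobox factor, with 34.9 and 51.7, and in Vgll2 exon 3, a cofactor of TEAD proteins in muscle, with 1.05 and 47.0. Among intron summits they were in Kcnh2 intron 1, a potassium channel of the heart (21.7 and 45.1), Osbp2 intron 2, an oxysterol-binding protein (36.1 and 42.5), and Rnf220 intron 3, a ubiquitin ligase (22.4 and 39.7). All 6 stood higher in the CLPP-KO list than in the WT + 2HG list. This is a description, since they were chosen by their CLPP-KO area. For Vgll2 the start windows themselves had peaks in WT + 2HG and CLPP-KO but not in WT, and for the other 5 they had peaks in every list.

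The strongest regions of CLPP-KO alone included homeobox genes. En1, which patterns the midbrain and limb, had an exon region at the 37.2 percentile and an intron region at 39.7, with promoter peaks in all 3 lists. Pax3, a factor of neural crest and muscle precursors, had one in intron 4 at 40.1, and its promoter had peaks in WT + 2HG and CLPP-KO. Six2, known from kidney progenitors, had an exon 2 region at 30.9. Btbd17 exon 3 stood at 32.7 and the lncRNA Gm52714 at 36, neither with a promoter peak in any list. WT + 2HG alone held weaker regions, led by exons of Crb2, a cell polarity protein (24.1), Artn, a ligand of the GDNF family (19.8), and Apba1, a neuronal adaptor (19.5), and by introns of Nfix, a nuclear factor I protein (17.2), the lncRNA Gm53255 (14.1) and Dlg4, a postsynaptic scaffold (13.9). The promoters of these genes had peaks in every list, apart from Crb2, which had none.

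Regions found in WT but not in every non-WT list were few when all peaks were used, and those named here stood below the 25th percentile, apart from Hoxb3 in CLPP-KO. In lists of equal size, for which only the non-WT lists were cut, they were more numerous. WT alone then held 52, and it shared 11 with CLPP-KO and 15 with WT + 2HG. WT alone held 2 regions in Rasgrf2, an exchange factor for Ras (11.9 for exon 5 and 9.80 for intron 2), at which WT also lacked the promoter peak that WT + 2HG and CLPP-KO had. Map1s exon 5, a microtubule-associated protein, stood at 7.12, Zfp180 at 5.10, Zcchc24 intron 1 at 13.5 and Cibar1 at 13.9, the last on sequence with 46 copies. WT and CLPP-KO shared Hoxb3 intron 1, a homeobox region at 4.56 in WT and 73.9 in CLPP-KO, together with Gm52960 (9.36 and 20.3), Ttbk1 (5.95 and 9.88), Trp53i13 (6.71 and 9.27), Actr3b (15.6 and 18.7) and Bop1 (0.211 and 10.7). With WT + 2HG, WT shared Snai1 exon 3, a repressor of epithelial genes (5.82 and 24.6), and introns of Gm60844 (17.7 and 21.1), Ajuba (19.3 and 19.8) and Arhgef17 (13.1 and 18.4).

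**Figure D3:**
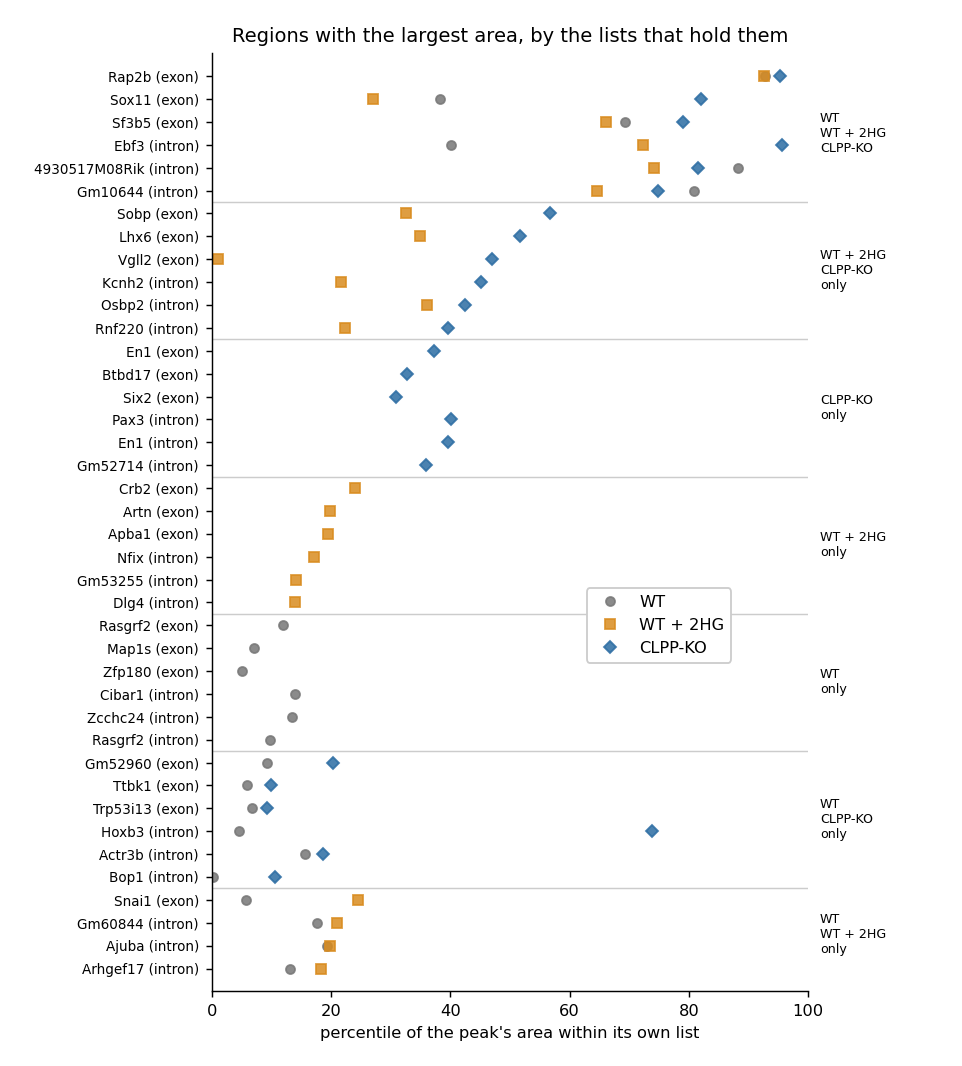
Percentile of peak area within its own list for the regions of largest area in each combination of lists, up to 3 exon and 3 intron regions each; grey circles are WT, orange squares WT + 2HG and blue diamonds CLPP-KO. Regions in all lists lie mostly above 60, those of CLPP-KO alone between 30.9 and 40.1, and those of WT alone at or below 13.9, while Hoxb3 lies at 4.56 in WT and 73.9 in CLPP-KO.

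A few genes held several regions. Of the 628 hosts, 57 held more than 1. Muc19, a large secreted mucin, held 7, all in exon 33 and all in CLPP-KO alone, with percentiles from 1.20 to 18.0; the 300-bp windows at their summits each have 36 copies in the genome, so these 7 may share reads. Nfix held 6, with 1, 6 and 2 of them in the 3 lists. Its region in all lists had 57.6, 49.8 and 43.4, and its 4 regions of WT + 2HG alone had 17.2, 8.00, 10.8 and 4.34. Ostm1, a lysosomal membrane protein, held 4 (2 in WT and 4 in each non-WT list), as did Ttbk1, a tau kinase. Foxo6, a forkhead factor of neurons, held 3. Its exon 1 region was at 86.3, 78 and 68.6, its intron region was at 13.4, 40.6 and 55.1, and its last-exon region was at 16.6 (WT + 2HG) and 30.6 (CLPP-KO).

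Exon and intron summits sat in different parts of their genes. Exon summits had a median place of 0.747 (WT), 0.823 (WT + 2HG) and 0.813 (CLPP-KO) along the host gene, where 0 is its 5′ and 1 its 3′ end, and intron summits 0.391, 0.444 and 0.454. The places of exonic and intronic bases outside the start windows were not computed, so these medians show no preference of the peaks. Of the exon summits within an exon of the host's canonical transcript (63, 140 and 214), 60.3, 70.0 and 64.5% were in its last exon. Among all exon summits these were 38 of 71, 98 of 161 and 138 of 234. Last exons of canonical transcripts made up 43.4% of the exonic bases of all transcripts outside the start windows. That share has the wider base of the second set of counts. The canonical exons that held a summit were long, with a median of 2255, 2084 and 2086 bp, beside 1477 bp for last exons of coding genes in the annotation. Coding sequence held 67.6% of exon summits in WT (56.1 to 77.3%), 77.0% (69.9 to 82.8%) and 78.6% (72.9 to 83.4%) in the non-WT lists, though it is 23.6% of the exonic space outside start windows. Of the intron summits within an intron of the host's canonical transcript (99 of 110, 231 of 264 and 234 of 266), 45.5, 43.3 and 39.3% were in its first intron. The share of intronic bases in first introns was not computed, so these values show no preference for the first intron. The median distance of all intron summits to the nearest start was 5906, 6938 and 6796 bp, against 4505, 4216 and 4468 bp for exon summits.

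Per length of sequence, exons carried more of these peaks than introns in every list. Outside the start windows exons make up 4.25% and introns 50.1% of chromosomes 1 to 19. Exon summits occurred at 0.800, 1.81 and 2.64 peaks per Mb, and coding sequence at 2.29, 5.91 and 8.78. Intron summits occurred at 0.105, 0.252 and 0.254 per Mb and peaks between genes at 0.0817, 0.183 and 0.253. The WT + 2HG and CLPP-KO lists thus had almost the same density in introns, and CLPP-KO the higher one in exons. The lists differ in length, and at equal size these 2 had 101 and 110 exon summits and 96 and 86 intron summits. Sequence with at least 10 genome copies, described below, held 10 of 234 CLPP-KO exon summits and 0 of 161 of WT + 2HG.

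**Figure D4:**
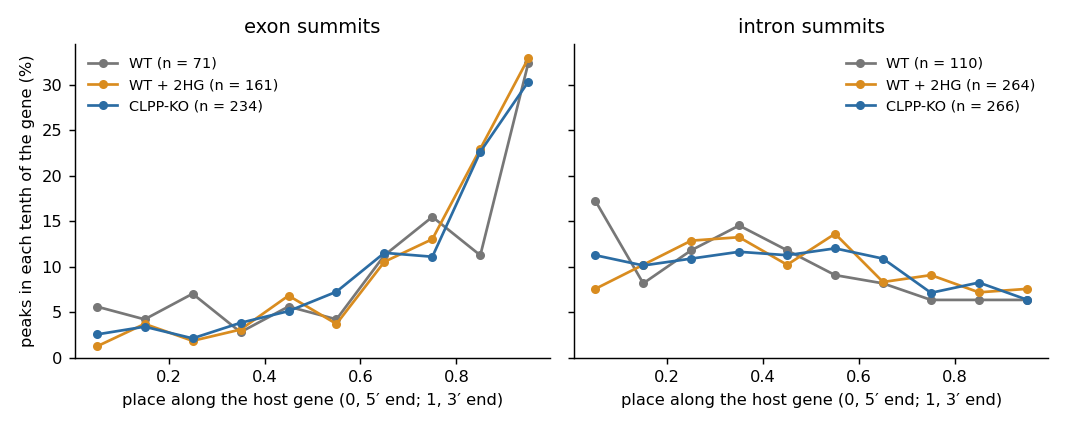
Share of summits (%) in 10 equal parts of the host gene from its 5′ end (0) to its 3′ end (1), for exon summits (left, 71, 161 and 234 peaks) and intron summits (right, 110, 264 and 266 peaks) of the 3 lists. Exon summits pile up at the 3′ end in every list, whereas intron summits are spread along the gene. The places of exonic and intronic bases themselves were not computed for comparison.

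The sequence at exon summits was rich in CpG in all lists, as in the stretches of Zfp36l1, Vgll2 and Cyp26c1 above. A 300-bp window around the summit was called CpG-rich when its GC content was at least 50% and its ratio of observed to expected CpG at least 0.6. This held for 71.8% of exon summits in WT (60.5 to 81.0%), 78.9% (71.9 to 84.5%) and 78.6% (72.9 to 83.4%) in the non-WT lists, and for 84, 86.2 and 87.7% of promoter peaks. Intron summits reached 42.7, 37.5 and 50.8%. The exon share exceeded the intron share by 29.1 points in WT (14.4 to 41.8). Of all 300-bp windows of the genome in the same classes, 1.20% in exons and 0.255% in introns met the definition. Per 1000 CpG-rich windows of the genome, peaks with a CpG-rich summit numbered 14.3, 35.6 and 51.6 in exons and 5.30, 11.2 and 15.2 in introns. Between genes they numbered 3.85, 8.77 and 12.9, and at promoters 219, 251 and 268. The summit windows are centred on peaks and the genome windows are fixed, so these values are ratios rather than shares of windows.

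By combination, CpG-rich summits made up 76.2% of regions in all 3 lists, 72.9% of those shared by WT + 2HG and CLPP-KO, 52.7% of those in CLPP-KO alone and 23.2% of those in WT + 2HG alone. None of the 33 regions of WT alone and none of the 8 of WT and WT + 2HG was CpG-rich. Exon regions followed the same order as the whole, with 86.4, 85.1, 69.1 and 52.9% in the first 4 combinations, and intron regions had 65.6, 60.0, 40.2 and 14.9%. The regions of one non-WT list alone were thus less often CpG-rich than the shared ones in exons and introns alike, and they were also the weaker ones.

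Short motifs of promoters were counted in the 300-bp summit windows on both strands. The GC box GGGCGG, bound by SP/KLF factors, was in 49.3, 49.7 and 49.6% of exon windows and 44 of 110, 111 of 264 and 135 of 266 intron windows (42.0% in WT + 2HG and 50.8% in CLPP-KO), against 61.4, 64.5 and 63.9% at promoter peaks and 4.08 and 2.48% of all exonic and intronic windows. This motif contains a CpG. The ETS motif CCGGAA, which contains one too, was in 9.86, 14.9 and 14.1% of exon and 9.09, 14.8 and 15.4% of intron windows, and in 3.58 and 2.04% of all exonic and intronic windows. The TATA, CCAAT and C/EBP motifs were less frequent than in the genome's windows of both classes. The windows compared were not matched for base composition, and its part in these differences was not tested. Median GC of the summit windows was 65.0, 67.3 and 67.3% in exons and 60.2, 61.7 and 64.3% in introns. TATAAA was in 2.82, 2.48 and 1.71% of exon windows and 8.18, 6.44 and 5.64% of intron windows, where 22 and 26.7% of all windows held it. CCAAT, the CCAAT box, was in 12.4 to 22.5% of exon and 24.8 to 25.5% of intron windows (35.4 and 38.8% of all windows). The C/EBP motif TTGCNNAA, of a factor family with a main part in fat cells, was in 3.42 to 6.83% of exon and 6.02 to 7.27% of intron windows (12.9 and 13.4%). The AP-1 motif TGANTCA was in 0 to 2.14% of exon windows, against 8.60% of all exonic windows, and in 9.09, 4.55 and 6.39% of intron windows, against 8.98%. The E-box CACGTG, which also holds a CpG, stood above the share of all windows (3.96 and 3.09%), with 4.23, 7.45 and 8.12% of exon and 6.36, 6.06 and 7.14% of intron windows, although the WT exon value rests on 3 of 71 windows. The CRE palindrome TGACGTCA was in at most 2 windows of a class in any list. A window with several motifs was counted under each of them.

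Part of the regions lay on sequence that occurs many times in the genome, and this part differed between the lists. Copies were counted as the median number of exact genome matches of 11 words of 25 bases in the summit window. At least 10 copies were found for 0 of 71, 0 of 161 and 10 of 234 exon summits (4.27% in CLPP-KO, 2.34 to 7.69%). Among intron summits the numbers were 7 of 110 (6.36%, 3.12 to 12.6%), 23 of 264 (8.71%, 5.88 to 12.7%) and 54 of 266 (20.3%, 15.9 to 25.5%). Promoter peaks had 0.162, 0.260 and 0.408%. Of the intron regions of CLPP-KO alone, 50 of 127 lay on such sequence, as did 10 of its 97 exon regions, while the 144 regions shared by WT + 2HG and CLPP-KO included 2 and the 130 of all lists also 2. Without peaks on such sequence the share of CLPP-KO peaks with an exon summit was 51.4% instead of 46.8%.

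Of the 89 regions with at least 10 copies, 65 fell into 11 families of like sequence. The largest family had 23 intron regions on 14 chromosomes, with a median of 2382 copies and 65.0% GC. The Pdilt stretch printed above is one of them. WT held none of the 23, WT + 2HG 10 and CLPP-KO 13, and no 2 of them were in the same host gene. A second family of 13 intron regions on 10 chromosomes, with a median of 1017 copies, had 0, 3 and 10. The Muc19 regions formed another. Which copy the reads came from cannot be settled from the lists, and the name of the repeats is not given in the sources used here.

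**Figure D5:**
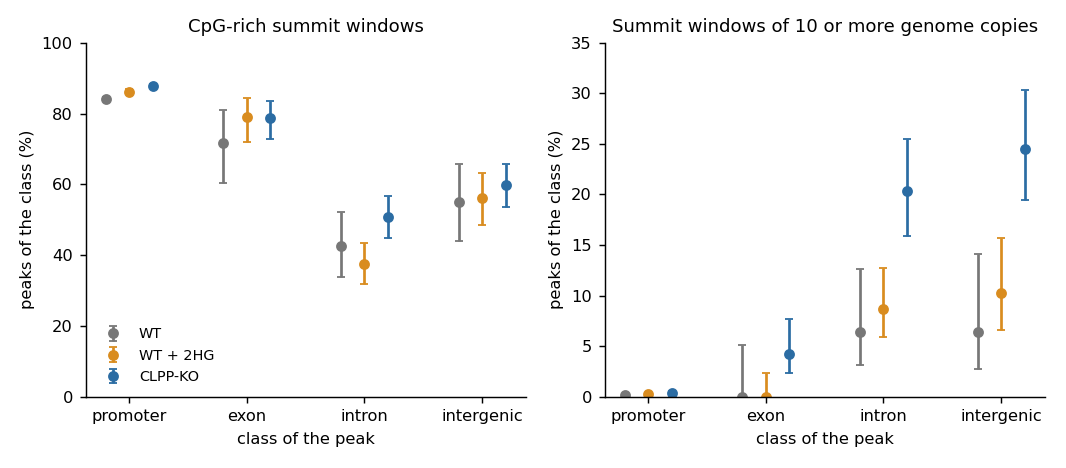
Share of peaks (%) of each class with a CpG-rich summit window (left) and with a summit window of at least 10 genome copies (right); points are the 3 lists and bars 95% Wilson intervals. Exon summits lie between 71.8 and 78.9% CpG-rich, near promoter peaks, and repeated windows are most frequent in intron summits (20.3%) and intergenic peaks (24.5%) of CLPP-KO.

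Many but not all host genes also carried the mark at their start. The host gene had a promoter peak in the same list for 52.1, 68.9 and 62.4% of exon summits and 71.8, 70.8 and 68.4% of intron summits. For comparison, 52.9, 58.0 and 59.7% of all protein-coding genes had one. Of the exon summits absent from WT, the host promoter was already marked in WT in 51.9% (WT + 2HG) and 46.7% (CLPP-KO) of cases, had a peak in the non-WT list but not in WT in 19.2 and 13.6%, and had none in either in 28.8 and 39.6%. For intron summits absent from WT the shares were 64.2 and 58.1%, 5.18 and 7.07%, and 30.6 and 34.8%. Hosts of exon summits were nearly all protein-coding (97.2, 96.9 and 95.7%), whereas lncRNAs were hosts of 14.5, 22.7 and 22.2% of intron summits.

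Some regions had a start of transcription or translation nearby that the start windows did not cover. RefSeq starts, matched by sequence, lay within 2000 bp of the summit of 25 regions, for 7 of them a start of the host gene itself. These 7 were in Gm33887, Gdnf, a survival factor of neurons (2 regions), Bcl6, a transcriptional repressor, Rap2b, Nfix and Rara, a retinoic acid receptor. The intron region of Gdnf, 102 bp from such a start, had percentiles of 9.52, 21.6 and 31.2. In 11 regions a peak held an annotated start codon, namely Nhlh1, Nhlh2, Sf3b5, Zfp36l1, Itgb7, Pmaip1, Rap2b, Foxo6, Srrm3, Zfp771 and S1pr5, and 6 of these were in all 3 lists. Leaving out the 25 regions changed none of the 22 values recomputed beyond counting error.

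Among the groups of genes examined, developmental families had the highest share of genes with a region. Of 184 protein-coding genes of the Hox, Pax, Nkx, Fox, Sox, Tbx, Wnt, Irx, Lhx, Dlx, Gata and sine oculis families, 24 held 29 regions (13.0%), against 547 of 20604 protein-coding genes (2.65%). By list, 6, 13 and 23 of these genes had a region, and the share of all protein-coding genes with one was not computed for each list. In all, 18 of the 24 had none in WT. Of all 704 regions 74.3% were absent from WT, which is a share of regions rather than of genes. The share of all host genes without a WT region was not computed. The 18 of 24 are thus not shown to be particular to the families. Their promoters were marked in 100, 143 and 159 of the 184 genes, the same order of the lists as for the regions inside them. Of all protein-coding genes 52.9, 58.0 and 59.7% had a promoter peak. That is the same order again, and it is also the order of the lists by length. Gene length and CpG content were not held equal in this count. The earlier results of these data were known when the families were chosen.

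The single members show where in the genes the peaks were. Forkhead genes with a region were Foxo6, Foxc1, Foxf2 (26.7 and 36.8 in the non-WT lists), Foxa1 exon 2 (8.39 in CLPP-KO) and Foxp4 (11.8 in CLPP-KO). LIM and Pax genes were Lhx6, Lhx2 (7.0 in CLPP-KO), Lhx5 (7.79 in WT + 2HG), Pax3 and Pax7, a factor of muscle stem cells, whose intron 4 held 1 region at 9.39 and 25 in the non-WT lists and another at 23.2 in CLPP-KO alone. Nkx1-1 exon 2 had 26.9 and 23.4 in the non-WT lists, Nkx3-2 exon 2 had 9.09 in CLPP-KO, and Nkx6-3 had 21.9, 15.7 and 26.5 in the 3 lists. Irx5, an Iroquois factor, had 26.9 and 83.7 in the non-WT lists in its last exon, where the CLPP-KO peak reached into a start window. Among Wnt ligands, Wnt3a intron 2 had 27.5, 23.1 and 26.5, Wnt10a exon 4 had 19.1 and 33.3 in the non-WT lists, and Wnt10b and Wnt8a had 2.04 and 4.90 in CLPP-KO. Tbx15, a T-box factor of the skeleton and of brown fat, had 2 intron regions in CLPP-KO alone (17.4 and 9.16), Tbx2 had 19.6 and 14.6 in the non-WT lists, and Six3 had 13.0 in CLPP-KO.

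The lists of fat cell genes and of the pathways the study is about were short, with 0 to 2 genes that held a region. At the 2.65% of all protein-coding genes, lists of this size would hold about 1 such gene or none, so the counts are a description only. Of 26 adipocyte genes, 2 held a region (7.69%): Fasn, the fatty acid synthase, in intron 3 in WT alone at the 2.28 percentile, and Lipe, the hormone-sensitive lipase, in its last exon in WT + 2HG alone at 5.53. Of 15 brown fat genes, 1 held a region (6.67%): Ppargc1b, a coactivator of mitochondrial genes, in intron 1 in WT + 2HG alone at 4.58. All 3 were among the weakest peaks of their lists. None was found in 17 genes of 2HG and one-carbon metabolism, 16 of H3K4 methylation, 11 of the nuclear envelope or 42 collagen genes, and all 16 genes of H3K4 methylation had a promoter peak in every list. Of 410 zinc finger genes of the Zfp series 13 held 15 regions (3.17%, again near the share of all protein-coding genes), with 4, 10 and 8 genes in the 3 lists. Zfp423, a factor of fat cell commitment, had 2 weak intron regions in CLPP-KO alone (7.69 and 3.26), Zfp697 had 27.5, 52.1 and 37.2 in its last exon, and Zfp771 had 28.6, 43.6 and 54.5 in its own. The region of Zfp106 in WT + 2HG (3.98) lay on sequence with 12897 copies.

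Peaks on either side of the edge of the start window are given as a description. Peaks inside genes whose nearest edge lay up to 200 bp beyond the window numbered 14, 26 and 31, with median percentiles of 20.0, 16.6 and 13.7, and 50.0, 53.8 and 54.8% of them were CpG-rich. Peaks with a summit in a gene whose nearest edge lay up to 200 bp within it numbered 13, 29 and 27, with 15.9, 12.7 and 17.7 and with 38.5, 55.2 and 70.4% CpG-rich.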

How the data were processed

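The 12 mBA samples (4 per condition) and 3 inputs were measured by ChIP–seq of H3K4me3. Per the labels and the paper's methods, the authors trimmed reads with fastp 0.23.4, mapped them to GRCm39 with BWA 0.7.17 and ran Genrich 0.6.1 jointly on a condition's 4 replicates. A minimum mapping quality is not given in the sources used here. The deposited columns, all made by the authors, are a score with a ceiling of 1000, the signal (area under the curve), the −log10 p-value at the summit and the summit's offset. The q-value field is −1 throughout and was not used. The lists hold no read counts, and the paper states a single sequencing depth rather than one for each library, so the depth behind each list is unknown. The calling command printed with the paper leaves out chromosome X and sets a limit on q-values, whereas the deposited lists hold chromosome X peaks and no q-values, so their exact settings are not known.

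Genes and starts came from GENCODE M39 on GRCm39, which may differ from the annotation the authors used, and no peak passed a chromosome's end. Exon summits lie in an exon of any transcript of the gene they fall in. Peaks overlapping by at least 1 bp were shared. Copies were counted in the whole genome, since the sequence carries no repeat marks; masking repeats had been planned and could not be done. Promoter records of RefSeq (32851) were placed by exact matches of 40 bases. Shares have Wilson and differences Newcombe intervals, and no p-value was computed. The code was tested on simulated data and overlaps were checked against bedtools 2.31.1. Scripts ran in Python 3.11.15 with pysam 0.24.0, numba 0.67.0 and pandas 2.3.3. The members, the gene lists and the rule for named genes were chosen with earlier results of these data known. Named genes were the 3 exon and 3 intron regions of largest area in each combination, members of the gene lists, the 3 hosts with most regions and the 3 widest regions; Gdnf, Ttbk1, the remaining RefSeq and start codon hosts and Pdilt were added after their values were seen, and Cyp26c1 is named by the rule for the first 6 printed sequences, which was made after the data were seen. Alternatives changed the window, the starts, the thresholds, the overlap, the list size, the CpG definition and the treatment of repeats; those on copies and RefSeq starts were added after seeing the data.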

Additional observations from a re-analysis of the deposited data

Results flagged for a closer look

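Chromosome X lay outside the rule and was used in no comparison. By the same definition of a peak inside a gene and away from starts, the CLPP-KO list had 13 such peaks on chromosome X (5 exon and 8 intron summits, of 413 peaks) and the WT + 2HG list 8 (2 and 6, of 383), where the WT list had 7 (1 and 6, of 276). The shares were 3.15, 2.09 and 2.54%, so the WT + 2HG share was below that of WT. Bcor, a corepressor, and the gene Gm61974 were hosts in all 3 lists, and Pcdh11x, a protocadherin, and Syp, a protein of synaptic vesicles, in both non-WT lists. The counts stood above that of WT in both lists, and with 1 list per condition the difference was not tested.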

How the results depend on the processing

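In all, 15 alternatives gave 230 values, of which 142 stayed within counting error or 1.5 times the reported count and 88 moved; for the latter the cause was not tested beyond what the alternative itself changes. No share has a test. The order of the lists by number of peaks, WT below WT + 2HG below CLPP-KO, held under every alternative except lists of equal size, and CLPP-KO had the highest exon share except at a minimum area of 1000, where WT had it. The choice of start sites moved most. With starts of protein-coding genes alone the peaks inside genes numbered 614, 1092 and 1290 (here and below in the order WT, WT + 2HG, CLPP-KO), exon summits made up 62.4, 59.6 and 62.6%, CpG-rich summits 69.7, 67 and 72.9% and hosts with a promoter peak 83.1, 83.6 and 82.4%, and 52.1% (WT + 2HG) and 59.0% (CLPP-KO) of the peaks were absent from WT. The 1592 merged regions then held 521 in all lists, 346 in both non-WT lists, 419 in CLPP-KO alone, 22 shared by WT with CLPP-KO and 16 with WT + 2HG. With a window of 1000 bp WT had 276 peaks, exon summits in WT + 2HG were 43.6%, hosts with a promoter peak 74.6, 77.8 and 74.1%, and the regions numbered 206 in all lists, 218 in both non-WT lists, 20 shared by WT with CLPP-KO and 26 with WT + 2HG. A window of 3000 bp left 5 of the last kind, and joining peaks within 1000 bp left 2. A minimum area of 1000 left 51, 148 and 193 peaks, with exon shares of 58.8, 52.0 and 57.0%, CpG-rich shares of 78.4, 83.1 and 86.5% and marked hosts for 56.9% (WT) and 63.5% (WT + 2HG). Its 223 regions were 48 in all lists, 82 in both non-WT lists, 66 in CLPP-KO alone, 23 in WT + 2HG alone, 0 in WT alone, 3 shared by WT with CLPP-KO and 1 with WT + 2HG. A summit p of at most 1e-05 left 88, 226 and 264 peaks, a WT + 2HG exon share of 45.1%, CpG-rich shares of 70.5, 71.7 and 75%, marked hosts for 55.7% (WT) and 65.5% (WT + 2HG), and a CLPP-KO share absent from WT of 68.2%. Its 312 regions included 82 in all lists, 74 in CLPP-KO alone, 38 in WT + 2HG alone, 0 in WT alone, 6 shared by WT with CLPP-KO and 1 with WT + 2HG. Lists of equal size gave 197 and 196 peaks in WT + 2HG and CLPP-KO, exon shares of 51.3 and 56.1%, CpG-rich shares of 76.6 and 86.7% and 45.2 and 45.4% absent from WT. Their 309 regions included 53 in both non-WT lists, 38 in CLPP-KO alone, 36 in WT + 2HG alone, 52 in WT alone and 15 in WT and WT + 2HG. With this setting regions of WT alone outnumbered those of either non-WT list alone, which is opposite to the full lists. The setting took the weakest peaks from the non-WT lists only, so the number in WT alone could not fall. A reciprocal overlap of 50% raised the shares absent from WT to 75.1% (WT + 2HG) and 77.8% (CLPP-KO) and the regions of WT alone to 54. A CpG window of 1000 bp gave CpG-rich shares of 42.4% (WT + 2HG) and 44.4% (CLPP-KO), and the stricter definition of at least 55% GC and a ratio of 0.65 gave 55.8% in CLPP-KO. Leaving out sequence with at least 10 copies raised the exon share in CLPP-KO to 51.4%. Placing peaks by the summit alone, and leaving out regions near RefSeq starts, moved none of 22 values. No paired analysis was possible because each list was called jointly on 4 replicates, and no replicate could be left out. Weak peaks limit every count here: the lists give no read depth, so a peak missing from a list was not called there and is not shown to be absent.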
